A study of Arabidopsis thaliana with 8 samples.

Results

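PSBY, PSBW, PSB27 and LPA19 are 4 nuclear genes of Arabidopsis thaliana whose products belong to photosystem II or help to build it. They were taken as the features that the platform annotation assigns to exactly one of PSBY (AT1G67740), PSBW (AT2G30570), PSB27 (AT1G03600) or LPA19 (AT1G05385). Each gene had 1 such feature, so the set holds 4 of the 3439 features of the array. RNA of 8 samples was measured on 1-channel arrays, with 4 from wild type plants (WT) and 4 from the psah2k double mutant, both of ecotype Columbia 0, and arrays were numbered 1 to 4 within each genotype. The line name points to photosystem I subunits H and K, whereas the description of the samples speaks of E1 and K. The sources used here do not give the age, the organ, the growth conditions or the origin of the replicates. The spread behind each p-value is therefore that of these samples and may be technical.

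Photosystem II is the thylakoid complex that uses light to take electrons from water and pass them to plastoquinone. Its core of chlorophyll proteins is encoded in the plastid, while several small subunits and nearly all assembly factors come from the nucleus and are imported. PSBY is made as a precursor that is cut into a pair of single-helix membrane proteins near cytochrome b559. PSBW is a single-helix protein that holds the core and its outer antenna together. PSB27 and LPA19 are related lumenal proteins. In Arabidopsis PSB27 is known for recovery of photosystem II after photodamage, and LPA19 for the processing of the carboxyl end of the D1 core protein.

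The deposited values are intensities on a linear scale with a ceiling of 100 and without a detection flag. The whole distribution differed between the genotypes: the median intensity of an array lay between 0.304 and 0.336 in WT and between 0.0506 and 0.0582 in psah2k. Features listed at 0 numbered 448 to 472 per array in WT and 739 to 1014 in psah2k. For that reason each gene is given as its intensity, as its percentile rank among the 3439 features of the same array, which no scaling of an array can alter, and as log2 fold changes under 4 scalings between arrays. All 4 genes were above 0 on all 8 arrays and passed the filter of at least 3 values above 0 per genotype. The part of this shift in the differences below was not tested.

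The 4 genes differed in direction in deposited intensity, but after median centring limma called all 4 higher, beside 34.7% of tested features. Of the 4, only PSBY kept the direction of its log2 fold change under all 4 scalings. PSBY was higher on every psah2k array, in intensity and in rank. LPA19 was dimmer in psah2k as deposited but stood at a higher rank within its arrays. PSBW was among the brightest features in both genotypes and differed little in deposited intensity and rank, while the size and direction of its log2 fold change depended on the scaling. PSB27 varied widely among the WT arrays, and its genotypes overlapped in intensity, in rank and after quantile normalization.

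On WT arrays 1 to 4, PSBY had deposited intensities of 2.05, 2.01, 1.84 and 1.79. On psah2k arrays 1 to 4 it had 4.83, 4.49, 3.12 and 2.99. Every psah2k array lay above every WT array, and the spread among psah2k arrays was the wider one. The mean was 1.92 ± 0.128 for WT against 3.86 ± 0.942 for psah2k (SD, n = 4 each), a ratio of 2.01. A two-sided exact permutation test returned p = 0.0286, its lower limit with 4 arrays per genotype, and p = 0.0408 after Benjamini-Hochberg adjustment over the 3439 features. Over the array, 5.21% of features had every psah2k intensity above every WT intensity. Among the 236 brightest tested features (10%), to which PSBY, PSBW and PSB27 belong, limma called 40.3% higher in psah2k as deposited, against 3.64% of the 2117 others.

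LPA19 was the dimmest of the 4 features and the only one whose intensity separated the genotypes downward. On WT arrays 1 to 4 it read 0.187, 0.226, 0.194 and 0.244. The corresponding psah2k readings were 0.0768, 0.0883, 0.0956 and 0.0728. The genotypes did not overlap. The mean was 0.213 ± 0.0268 for WT against 0.0834 ± 0.0105 for psah2k (SD, n = 4 each), so that psah2k stood at 0.392 of WT (exact permutation test, p = 0.0286, and 0.0408 adjusted over all features). A downward separation of this kind was the common one on these arrays, found for 64.8% of features.

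PSBW, the brightest of the 4, read 45.7, 45.3, 43.8 and 45.8 on WT arrays 1 to 4. The psah2k readings in the same order were 45.2, 43.2, 34.4 and 38.9. The WT arrays lay close together and the psah2k arrays spread downward. psah2k 1 lay above WT 3, so the genotypes overlapped. The means of 45.2 ± 0.904 and 40.4 ± 4.80 (SD, n = 4 each) gave p = 0.0571 in the exact permutation test.

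PSB27 read 2.26, 2.41, 1.56 and 0.701 on WT arrays 1 to 4. The psah2k readings in the same order were 1.15, 1.29, 0.839 and 0.639. WT 4 lay below 3 of the 4 psah2k arrays, while the other WT arrays lay above all of them. The means were 1.73 ± 0.780 and 0.982 ± 0.297 (SD, n = 4 each), with coefficients of variation of 45.0% and 30.3%, and the exact permutation test gave p = 0.143. Without WT 4 the difference of the means was −1.09 in place of −0.750.

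**Figure D1:**
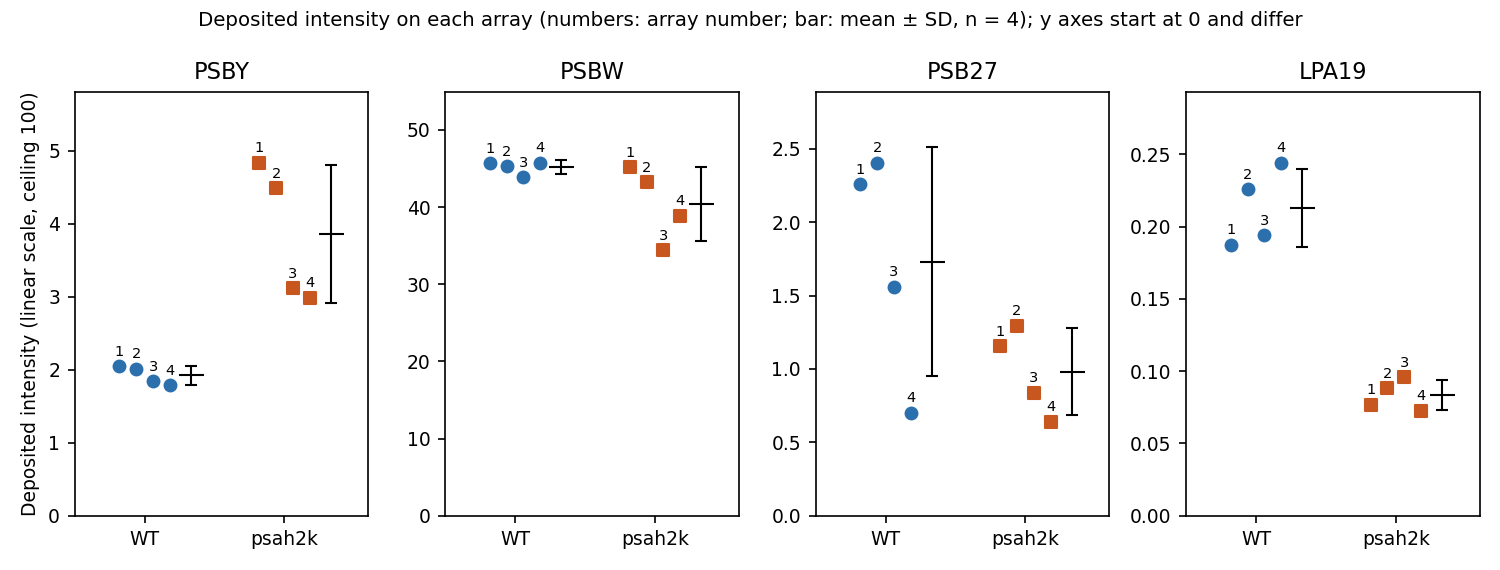
Deposited intensity (linear scale, each axis starting at 0) of PSBY, PSBW, PSB27 and LPA19 on the 4 WT arrays (circles) and the 4 psah2k arrays (squares), with array numbers and the mean ± SD beside them. PSBY lies higher and LPA19 lower on every psah2k array, whereas the genotypes overlap for PSBW and PSB27, the latter through WT 4 at 0.701.

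**Figure D2:**
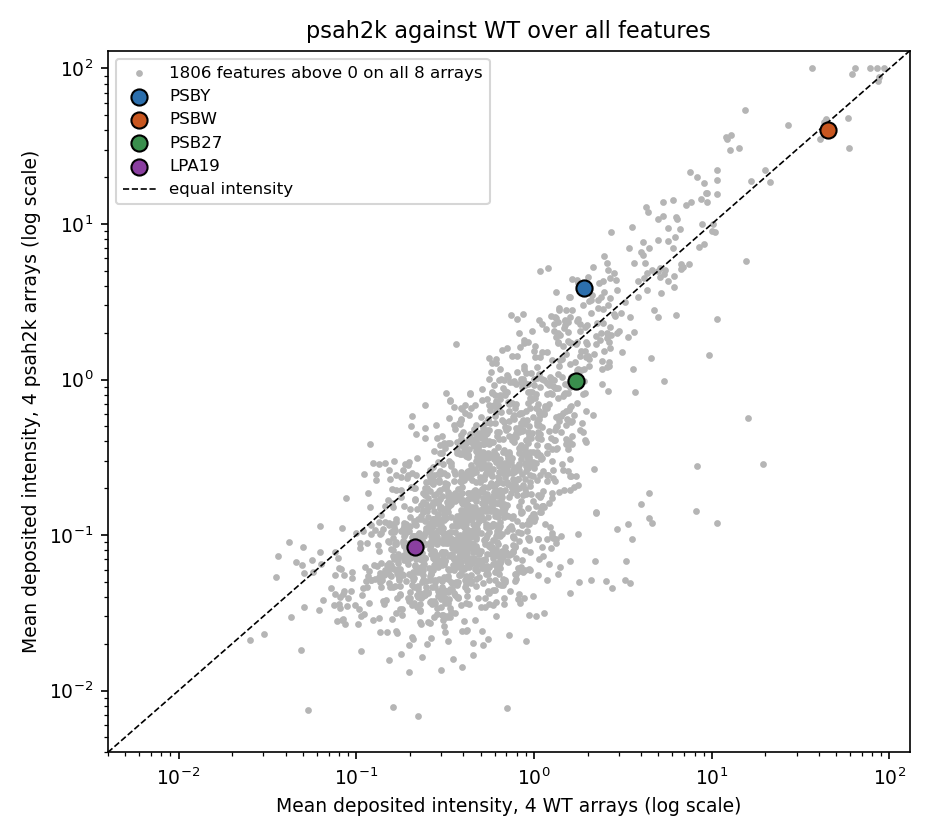
Mean deposited intensity on the 4 psah2k arrays against that on the 4 WT arrays, both on log scales, for the 1806 features above 0 on all 8 arrays (grey) and for the 4 genes (coloured), with a dashed line of equal intensity. Most dim features lie below the line, as does LPA19, PSBW lies close to it among the brightest features, and PSBY lies above it.

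Ranks placed the genes within each array. Counted from the brightest feature, PSBW was at positions 12, 12, 11 and 10 on WT arrays 1 to 4. On the psah2k arrays in the same order it was at 14, 14, 16 and 11. Its percentile ranks of 99.7 ± 0.0278 and 99.6 ± 0.0599 (SD, n = 4 each) overlapped (exact permutation test, p = 0.114). It was therefore among the 16 brightest features on all 8 arrays.

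PSBY stood at percentile ranks of 94.8, 94.5, 94.1 and 94.1 on WT arrays 1 to 4. Its psah2k ranks in the same order were 97.4, 97.2, 97.0 and 96.8. Counted from the brightest, it lay between positions 181 and 204 in WT and between 89 and 110 in psah2k. The genotypes did not overlap, and the mean difference was 2.75 percentile points. That was larger than the difference of 51.1% of features, whose median was 2.24.

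LPA19 differed much more, its percentile ranks being 30.3, 35.7, 35.0 and 41.6 on WT arrays 1 to 4. Those on the psah2k arrays were 57.4, 60.3, 62.5 and 54.7. Again no psah2k array overlapped with a WT array, and here psah2k was the higher genotype, opposite to the intensities. The mean difference was 23.1 percentile points, which was larger than that of 89.3% of features.

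Each of these rank differences had an exact permutation p of 0.0286, the smallest possible, and p = 0.0527 after adjustment over all features, which misses 0.05. Ranks were higher on every psah2k array for 32.8% of features and lower on every one for 21.4%, so a separation in rank was common. With 448 to 472 features at 0 in WT and 739 to 1014 in psah2k, the lower ranks hold more tied features in psah2k. Among the 1806 features above 0 on all arrays, the rank difference of LPA19 was 14.2 percentile points, still with p = 0.0286 in the exact permutation test. Among the features with 1 gene it was 26.8, with the same p in that test.

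PSB27 had percentile ranks of 95.1, 95.5, 93.0 and 79.6 on WT arrays 1 to 4. Its psah2k ranks in the same order were 92.7, 93.1, 92.1 and 89.7. WT 4 was far below the other 7 arrays. The mean difference was 1.06 percentile points (exact permutation test, p = 0.971), and it was −2.69 without WT 4.

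**Figure D3:**
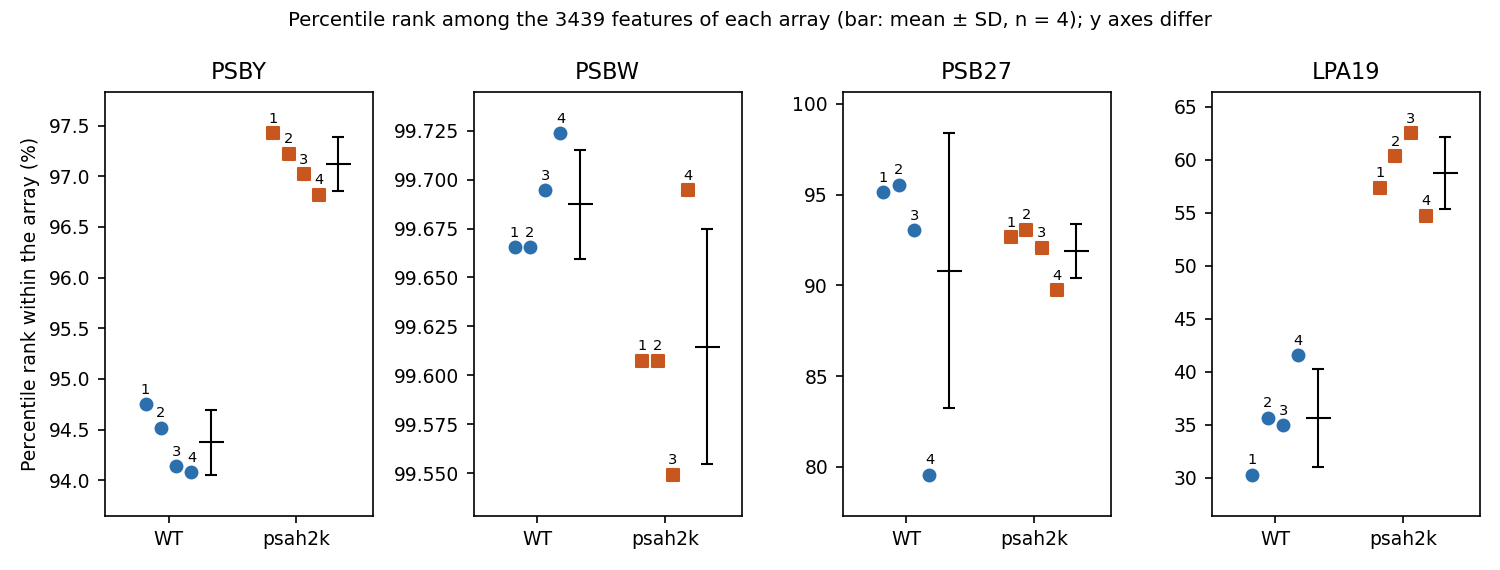
Percentile rank of each gene among the 3439 features of the same array, with array numbers and the mean ± SD, for 4 WT arrays (circles) and 4 psah2k arrays (squares); the axes differ between panels. PSBY and LPA19 rank higher on every psah2k array, LPA19 by 23.1 percentile points in the mean and PSBY by 2.75, while PSBW and PSB27 overlap.

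The log2 fold changes, psah2k minus WT, were then taken from a limma fit across 2353 features. Quantile normalization gave the values above 0 the same distribution on all arrays, with values of 0 left out as missing. After it, 2 of the 4 genes were called higher and 1 lower at an adjusted p under 0.05. Over the array 26.3% of tested features were called higher and 26.6% lower, 53.0% in all, so 3 calls among 4 genes are not far from the background. The median log2 fold change was 0.24 over the 4 genes and −0.12 over all tested features.

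After quantile normalization PSBY rose by 0.83 on the log2 scale (SE 0.119, limma adjusted p = 0.000794). As deposited, where limma called 7.31% of features higher and 73.0% lower, it was 0.97 (SE 0.198, limma adjusted p = 0.00265), and after centring each array on its median or its upper quartile it was 2.91 and 2.20. Median centring called 34.7% of features higher and 16.8% lower, and upper quartile centring 24.1% and 33.6%. PSBY was the only one of the 4 genes to pass the test in the same direction under all 4 scalings. AT1G54500, described below, did so too, and the share of all features that did so was not counted. Its call was lost when arrays 1 and 2, and 3 and 4, of each genotype were averaged first (limma adjusted p = 0.0556).

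LPA19 had the same quantile normalized log2 fold change, 0.83 (SE 0.184, limma adjusted p = 0.00658), yet −1.35 as deposited (SE 0.160, limma adjusted p = 0.000197), so that it passed in opposite directions. After median centring it was 0.58 (limma adjusted p = 0.0240) and after upper quartile centring −0.12 (limma adjusted p = 0.577). The median of all tested features moved with these scalings, from −1.77 as deposited to −0.53 after upper quartile and 0.18 after median centring. LPA19 lay above that median each time, and above the −0.12 after quantile normalization. With arrays 1-2 and 3-4 averaged first its call was lost (limma adjusted p = 0.0711). With each value of 0 replaced by the lowest positive one of its array, LPA19 was 1.61 and PSBY 1.12, no longer equal.

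PSBW was called lower after quantile normalization (log2 fold change −0.60, SE 0.191, limma adjusted p = 0.0298). It was −0.17 as deposited (limma adjusted p = 0.280), and it was called higher after median and upper quartile centring, with 1.77 and 1.06. Its normalized log2 values were 5.48, 5.48, 5.58 and 5.82 for WT 1 to 4. For psah2k 1 to 4 they were 4.86, 4.84, 4.76 and 5.48, so that psah2k 4 reached the lowest WT array. The call after quantile normalization was lost on leaving out any of the arrays other than psah2k 4, with log2 fold changes of −0.60 to −0.51 and limma adjusted p of 0.0538 to 0.0852. Without psah2k 4 it was −0.83. The highest intensity was 100 on each psah2k array and was shared there by 5 to 7 features. On each WT array 1 feature held the highest intensity, at 90.9 to 100. PSBW lay near this end, at positions 10 to 12 from the brightest in WT and 11 to 16 in psah2k. The part of the ceiling in its call was not tested.

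For PSB27 the quantile normalized log2 fold change was −0.36 (SE 0.491, limma adjusted p = 0.554) and −0.72 as deposited (limma adjusted p = 0.151). It passed as higher after median centring, with 1.21 (limma adjusted p = 0.0313), and did not pass after upper quartile centring, with 0.51. Without WT 4 it was called lower after quantile normalization (−0.91, limma adjusted p = 0.0163). Arrays 1 and 2 alone gave −0.95 (limma adjusted p = 0.0154) and arrays 3 and 4 alone gave 0.26 (limma adjusted p = 0.774). The difference between these values was not tested, and WT 4 is among the latter arrays.

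Arrays 1 and 2, and 3 and 4, were more alike within each genotype. Over 1806 features Spearman's rho was 0.987 and 0.981 for these pairs of WT arrays and 0.960 to 0.966 for the others, and 0.881 and 0.897 against 0.853 to 0.866 in psah2k. These are correlations across features, which are not independent replicates. The labels name no batch. For PSBY both psah2k arrays 1 and 2, at 4.83 and 4.49, lay above both psah2k arrays 3 and 4, at 3.12 and 2.99. The WT arrays of PSBY had the same order by a smaller gap, with 2.05 and 2.01 against 1.84 and 1.79. Its quantile normalized log2 fold change was 0.83 for arrays 1 and 2 alone and 0.82 for arrays 3 and 4 alone.

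**Figure D4:**
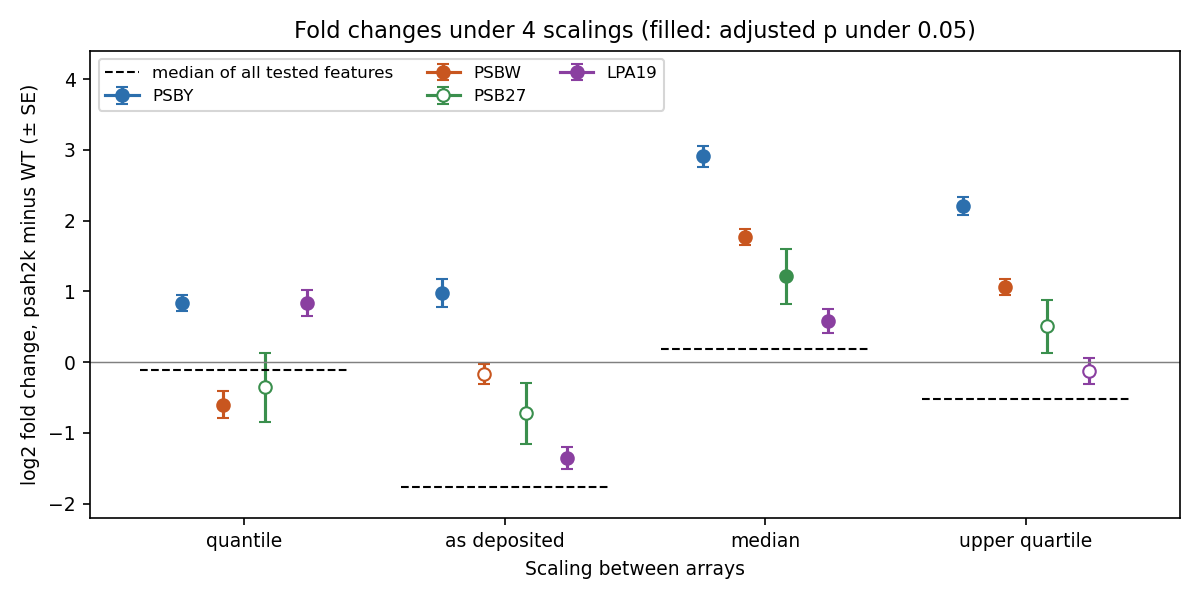
Log2 fold change, psah2k minus WT, with its SE from limma for each gene under 4 scalings between arrays; filled points have an adjusted p under 0.05 and dashed lines mark the median of the 2353 tested features. PSBY is above 0 and filled throughout, whereas PSBW, PSB27 and LPA19 lie on both sides of 0.

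Ratios between the genes on the same array are not altered by a factor common to the array. Since different features differ in their response, a ratio was compared only between genotypes and not read as a ratio of transcript amounts. A changed ratio shows unequal change, not which gene changed. Of the 6 ratios, 4 had no overlap between the genotypes, beside 57.9% of all pairs among the 1806 features, so this count too is near the background.

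PSBY over LPA19 had log2 ratios of 3.18 ± 0.240 in WT and 5.51 ± 0.408 in psah2k (SD, n = 4 each), a shift of 2.33 or 5.02-fold. Bright and dim features in general moved apart on this scale. The median deposited log2 fold change was 0.134 for the brightest 10% of tested features, with PSBY, and −1.95 for the others, with LPA19. The part of this in the shift, and in that of PSBW over LPA19, was not tested. PSBY over PSBW shifted by 1.14, from −4.56 ± 0.0908 to −3.41 ± 0.219. PSBY over PSB27 shifted by 1.70, from 0.30 ± 0.733 to 1.99 ± 0.190. On the deposited scale the 3 ratios with PSBY on top were thus higher on every psah2k array than on any WT array.

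PSBW over LPA19 also separated the genotypes, from 7.74 ± 0.170 to 8.92 ± 0.307, a shift of 1.18. PSBW over PSB27 shifted by 0.56 (exact permutation test, p = 0.257) and PSB27 over LPA19 by 0.63 (exact permutation test, p = 0.229), and both overlapped. The other 4 ratios each had an exact permutation p of 0.0286, and 0.0429 with Benjamini-Hochberg adjustment over the 6 ratios.

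All 6 ratios depended on the scaling in size. With quantile normalized values the shift of PSBY over LPA19 was 0.00032 (exact permutation test, p = 1), and that of PSBW over LPA19 was −1.44, reversed. PSBY over PSB27 shifted by 1.19 there (exact permutation test, p = 0.143) and no longer passed, PSB27 over LPA19 by −1.19 and PSBW over PSB27 by −0.25. PSBY over PSBW, both bright, shifted by 1.44 there and was higher in psah2k on either scale.

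Set against each of the 1805 other features above 0 on all arrays, the deposited ratio of PSBY was higher on every psah2k array than on any WT array for 89.2% of them and lower for 0.942%. The same shares were 64.4% and 11.7% for PSBW, 29.6% and 5.71% for PSB27 and 24.4% and 29.2% for LPA19. For LPA19 the shares in both directions were thus similar. PSBY, PSBW and PSB27 are among the 236 brightest tested features, whose median deposited log2 fold change was 0.134, against −1.95 for the 2117 others. Most comparisons of these 3 genes were therefore with dimmer features. Their shares were not set against those of features of like brightness, and the part of brightness in them was not tested.

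**Figure D5:**
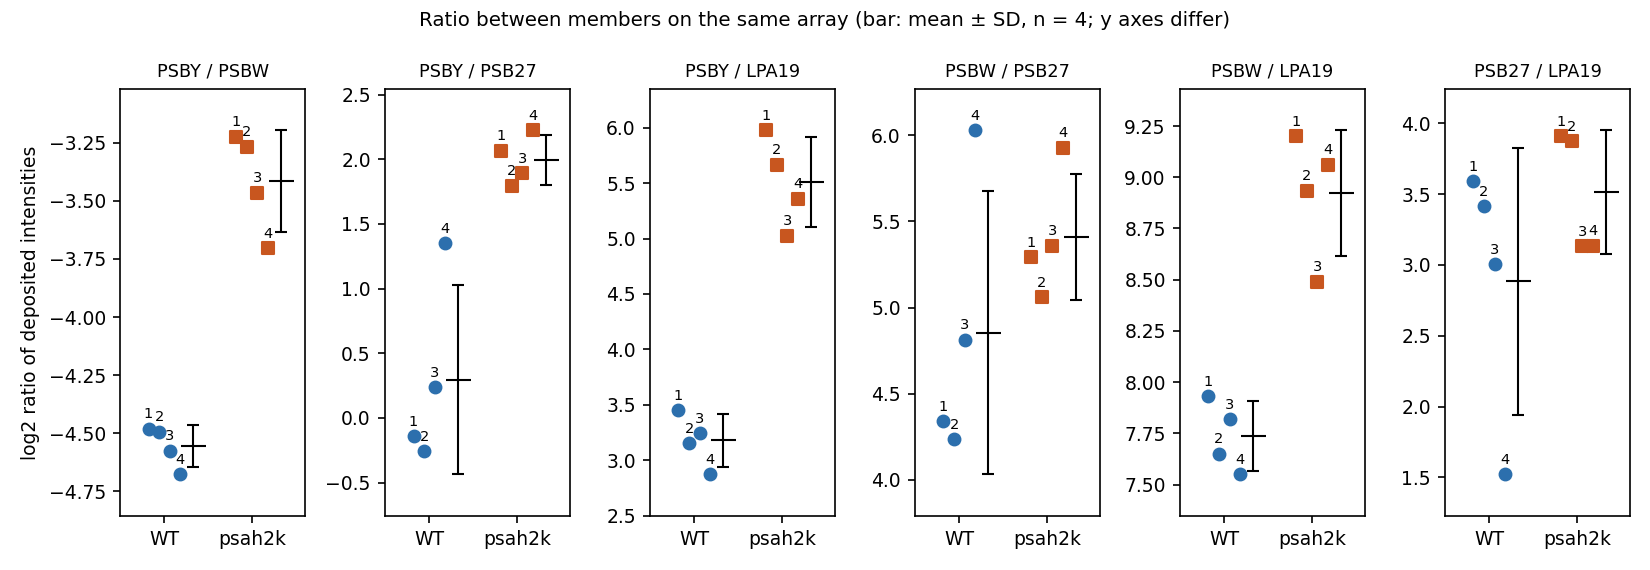
Log2 ratio of the deposited intensities of each pair of genes on the same array, with array numbers and the mean ± SD, for 4 WT arrays (circles) and 4 psah2k arrays (squares); the axes differ between panels. The 3 ratios of PSBY to the other genes and that of PSBW to LPA19 separate the genotypes, and the remaining 2 overlap.

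Other genes of photosystem II were sparse on the array. Of a list of 52 nuclear genes, with 12 subunits, 22 assembly factors and 18 genes of repair and phosphorylation, 5 had a feature with 1 gene: the 4 described here and AT1G54500, entered among the assembly factors. Another 7 features were shared by a listed gene and other genes and were not used. Of the 5, 3 were called higher and 1 lower after quantile normalization, beside 26.3% and 26.6% of all tested features. After median centring 5 were called higher and 0 lower, beside 34.7% and 16.8% of all tested features. With arrays 1-2 and 3-4 averaged first 1 was called higher and 0 lower, beside 346 and 343 of the 2353 tested features.

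AT1G54500 read 0.436, 0.483, 0.395 and 0.406 on WT arrays 1 to 4. The psah2k readings in the same order were 0.699, 0.641, 0.563 and 0.467. Of the psah2k arrays only number 4 reached into the WT range, and the exact permutation test gave p = 0.0571 for the intensities. The percentile rank of AT1G54500 lay between 59.8 and 64.3 in WT and between 87.2 and 89.5 in psah2k, without overlap. For this rank the exact permutation test gave p = 0.0286, and 0.0527 adjusted over all features, which misses 0.05. After quantile normalization it rose by 1.75 on the log2 scale (SE 0.123, limma adjusted p = 3.56e-05), and by 0.45 (limma adjusted p = 0.0377) as deposited, and it passed under the 2 other scalings too.

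AT1G54500 was also among the 3 genes whose pattern was most like that of PSBY, by Pearson's r of normalized log2 values over the 8 arrays and 337 other features with 1 gene. The r was 0.992 for AT2G02590, 0.987 for AT5G19050 and 0.985 for AT1G54500. For LPA19 the nearest was PRK, the phosphoribulokinase gene of the Calvin cycle (0.965), followed by AT1G78620 (0.941) and AT4G25290 (0.935). For PSBW these were AT4G24750 (0.962), AT5G10920 (0.948) and AT4G20820 (0.934). The nearest to PSB27 were much less alike, with 0.759 for AT1G50390, 0.710 for AT5G03900 and 0.662 for AT4G18180. Among the 4 genes themselves, r was 0.83 between PSBY and LPA19 and −0.86 between PSBY and PSBW. PSB27 and LPA19, which are related proteins, had r = −0.51. The 8 points fall into 2 genotypes, so r is given only as a description of likeness.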

How the data were processed

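The deposited table holds 1 intensity per feature and array on a linear scale up to a ceiling of 100. The sources used here do not state how the authors corrected background, scaled the arrays or set the ceiling. Groups and numbers were taken from the titles, per the labels. Features were named through the platform annotation, with 692 of 3439 features assigned to 1 gene and 690 of these updated through the TAIR10.1 RefSeq table. The array medians of log2 intensities spanned 2.14, above the limit of 0.1, so the arrays were quantile normalized with values of 0 as missing. Features with at least 3 values above 0 per genotype were tested with limma 3.58.1 in R 4.3.3 (lmFit, eBayes, two-sided, Benjamini-Hochberg over all tested features, threshold 0.05). The same fit was also run on simulated data with known changes, drawn from the means and SDs of these data. That run had no shift in intensity between arrays and no scaling step, so it does not bear on the choice of scaling. Single values were tested by two-sided exact permutation. Alternatives covered scaling, values of 0, filters, the variance model, averaged pairs, a block for the replicate number, and leaving out single arrays. The numbers 1 to 4 were not taken to pair the arrays, since the sources used here do not give the origin of the replicates. Deviations from the genotype means of same-numbered arrays correlated at 0.06 to 0.13. These were low, but each was the highest r of either array with an array of the other genotype. Results with a block for the number are given below. Named were the 4 genes, listed photosystem II genes with a feature of 1 gene, and the 3 features of 1 gene most correlated with each of the 4. The members, lists and tests were chosen with earlier results of these data known. No coordinates were used. The number of arrays limits the precision.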

Additional observations from a re-analysis of the deposited data

Results flagged for a closer look

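The quantile normalized log2 value of PSBW was 5.48 on psah2k 4, far above the 4.76 to 4.86 of psah2k 1 to 3. The percentile rank of PSB27 on WT 4 stood apart from the other WT arrays, at 79.6 against 93.0 to 95.5. Both exceeded Dixon's critical value for groups of 4. Of 36 groups examined 2 did so. The chance share of about 1 in 20 holds for independent groups of normally distributed values. These groups share genes and arrays, so their count cannot be set directly against that share.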

How the results depend on the processing

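The log2 fold change of PSBY kept its direction and its call under each alternative but one, the averaging of arrays 1-2 and 3-4, where the same log2 fold change of 0.83 had a limma adjusted p of 0.0556. That averaging also ended the calls of PSBW (−0.60) and LPA19 (0.83) and left 346 features called higher and 343 lower. As deposited, 172 features were called higher and 1718 lower. PSBW was −0.17, LPA19 was reversed at −1.35, and after upper quartile centring LPA19 was reversed at −0.12. PSBW and PSB27 were reversed after median centring (1.77 and 1.21) and upper quartile centring (1.06 and 0.51). Median centring gave 396 features called lower. With each value of 0 replaced by the lowest positive one of its array PSBW was −0.30 and missed the threshold, with 337 features called lower, and with a pseudocount of 0.0156 it was −0.30 too. In these 2 settings PSBY was 1.12 and 1.11, LPA19 1.61 and 1.18, and PSB27 −0.13 in both. PSBY and LPA19 were both 0.83 with values of 0 as missing. Chosen after seeing the data, arrays 1 and 2 alone gave −0.95 for PSB27, now past the threshold. Arrays 3 and 4 alone gave −0.53 for PSBW and 0.77 for LPA19, both missing it, 0.26 for PSB27, reversed, and 364 features called lower. Leaving out 1 array gave 0.75 to 0.88 for PSBY, −0.83 to −0.51 for PSBW, −0.91 to −0.10 for PSB27 and 0.72 to 0.98 for LPA19. Of the 5 listed photosystem II features, 3 were called higher and 1 lower in the reported fit, beside 26.3% and 26.6% of all tested features. The count called higher was 5 after median centring and 1 with averaged pairs, beside 817 and 346 of all 2353 tested features. The count called lower was 0 under either centring, with values of 0 replaced and with a pseudocount. It was also 0 with averaged pairs and with arrays 3 and 4 alone. With arrays 1 and 2 alone it was 2, where 452 of all 1987 tested features were called lower. On leaving out 1 array it was 0 to 1. The cause of these changes was not tested.

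Rank differences moved with the features ranked. Among features above 0 on all arrays they were 4.93 percentile points for PSBY, −0.138 for PSBW, 0.858 for PSB27 and 14.2 for LPA19. Among features with 1 gene they were 3.18 for PSBY, 0.0723 for PSBW, 1.99 for PSB27 and 26.8 for LPA19. Ratios of quantile normalized values shifted by 1.44 for PSBY over PSBW, 0.00032 for PSBY over LPA19, 1.19 for PSBY over PSB27 (exact permutation test, p = 0.143 in place of 0.0286), −0.25 for PSBW over PSB27 and −1.19 for PSB27 over LPA19, and PSBW over LPA19 was reversed at −1.44. With the replicate number as a block, PSBY, PSBW, PSB27 and LPA19 had limma adjusted p of 0.00838, 0.0283, 0.464 and 0.0217, so no call changed, with 558 features called higher and 529 lower. Every array correlated best with the array of its own number in the other genotype, a hint from the data only. For ranks and ratios a paired exact permutation test over 4 pairs cannot go below p = 0.125. Without detection flags, how far LPA19 stood above background is unknown.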
